A study of Homo sapiens with 6 samples.

Results

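The genes described here are 29 established targets of the transcription factor p53, taken by gene symbol from the 19475 symbols of the deposited mRNA table. They cover feedback on p53 itself (3 genes), arrest of the cell cycle (5), control of cell death (11), DNA repair (4) and metabolism (6). All 29 symbols were found, and all 29 passed the filter on low counts, which left 13794 genes in all.

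MH7A is an immortalised line of synovial fibroblasts from a joint with rheumatoid arthritis. Each of the 6 libraries came from MH7A cells given TNFα, an inflammatory cytokine of the arthritic joint, at 10 ng/ml. The TNF group had the cytokine alone (replicates 2, 8 and 14). In the LED group (replicates 4, 6 and 10) the cytokine was combined with 630 nm red light, labelled as 15 min and 3 times. Cells without TNFα, cells with light alone and cells warmed without light are not part of the comparison, so light and any warming cannot be told apart. The replicate numbers are those of the labels, which do not say whether the samples were separate cultures.

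p53 is activated when DNA is damaged or when a cell is otherwise stressed, and it then switches on genes that halt division, repair DNA, adjust metabolism or start cell death. It also switches on MDM2 and PPM1D, whose products turn p53 off again. MH7A was immortalised with the SV40 T antigen, a viral protein known to bind p53, which limits the line as a model of p53 signalling in normal fibroblasts. The viral transcript was not analysed here.

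The libraries held 86000253 to 108074289 estimated counts, which is about 21500063 to 27018572 sequenced fragments. Of 14 synovial fibroblast markers 13 were above the filter, with COL1A1 at 8705 to 14262 CPM (counts in each library divided by its TMM-scaled size, which corrects for library composition, and expressed per 1e+06 counts). The lining marker PRG4 was at or below 0.0787 CPM in every library. The leukocyte gene PTPRC was at 0 in all libraries but LED replicate 4 (0.132 CPM), and CD3E was at 0 throughout, but the macrophage-associated gene CD68 was at 92.2 to 153 CPM and CSF1R at 0.511 to 1.82 CPM. Of the endothelial genes CDH5 was at 0 throughout, while KDR was at 3.51 to 9.20 CPM. VWF was at 1.10, 0.443 and 0.369 CPM in TNF replicates 2, 8 and 14. It was at 1.44, 1.93 and 1.55 CPM in LED replicates 4, 6 and 10, each above every TNF library. The epithelial genes KRT5 and KRT14 were at 0. Of the markers of these other cell types, 3 leukocyte, 2 endothelial and 0 epithelial genes passed the filter and were tested. None of them was called, and the part of these cell types in the results was not tested. TNF replicate 8 and LED replicate 6 stood apart from the other libraries of their groups. Pairs that included one of them had a chi-square per degree of freedom of 73.4 to 131, against 26.9 for TNF replicates 2 and 14 and 26.7 for LED replicates 4 and 10. Results that rest on these libraries are therefore given with and without them.

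Transcripts of 7 p53 targets rose with LED light: the arrest genes CDKN1A and PLK2, the phosphatase PPM1D, the death genes FAS and TP53INP1, and the metabolic genes TIGAR and SESN1. Their increases lay between 1.80-fold for CDKN1A and 2.5-fold for SESN1. The other 22 did not pass, and among these were the classic death genes BAX, BBC3 and PMAIP1 and all 4 repair genes. The test was edgeR's quasi-likelihood test with Benjamini-Hochberg adjustment over all genes and a threshold of 0.05. Of all tested genes, 2.44% were called higher and 2.73% lower, 5.17% in either direction. At an unadjusted p below 0.05, 14 members were higher and 0 lower, where 10.9% of all genes were higher and 22.7% passed in either direction. DESeq2 called 12 members higher and 0 lower, where it called 6.34% of all genes higher. With limma-voom 5 members were called higher and 0 lower, against 2.27% of all genes higher. In bulk RNA, more cells with a transcript and more transcript per cell cannot be told apart.

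The groups did not overlap for 15 members that were higher with LED, where 16.2% of all tested genes were arranged this way. XPC was the single member lower in each LED library than in each TNF library, where 16.2% of all tested genes were arranged that way, and 13 overlapped. The median log2 fold change was 0.57 over the 29 members and 0.01 over all tested genes. It was above 0 for 22 members, and for 50.8% of all genes. By role the median was 0.90 for feedback, 0.85 for arrest, 0.68 for metabolism, 0.31 for death and -0.05 for repair. Without LED replicate 6 the medians were 0.71, 0.48, 0.37, 0.14 and -0.06 in the same order, and without it and TNF replicate 8 they were 0.68, 0.41, 0.27, 0.05 and -0.05.

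**Figure D1:**
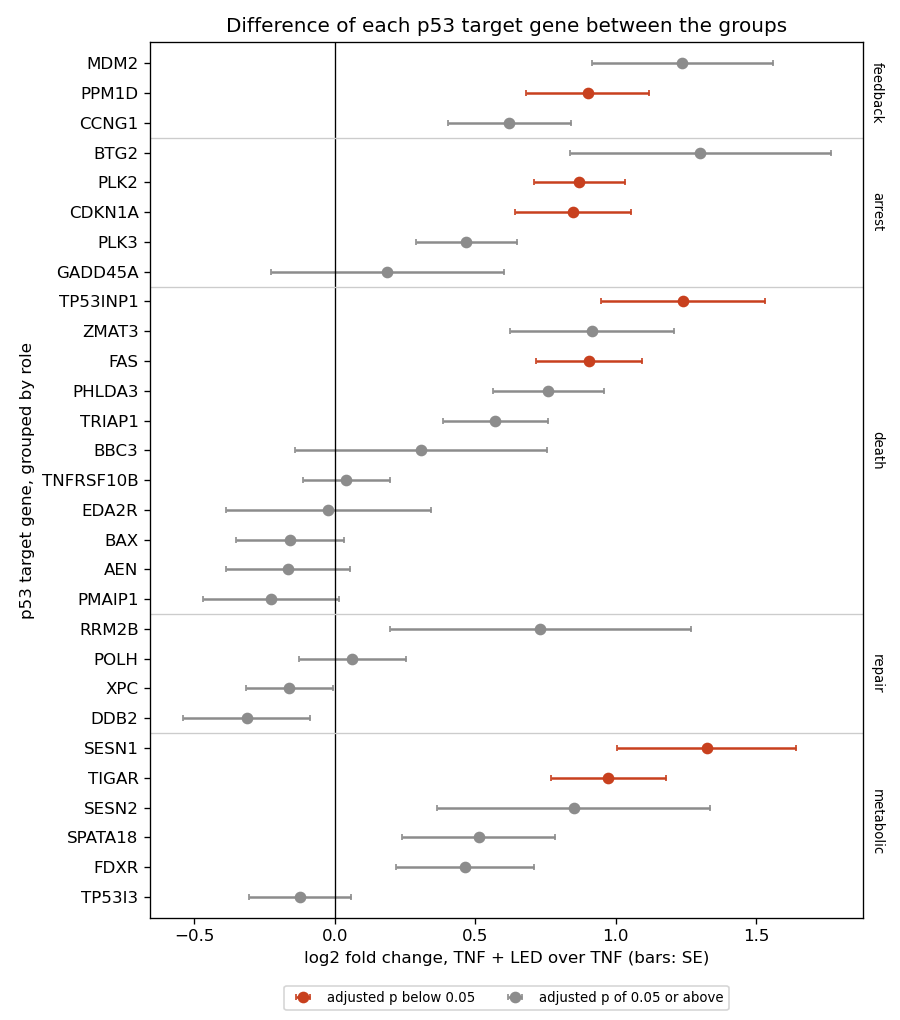
The plot gives the log2 fold change of TNF plus LED over TNF for each p53 target (points) with its standard error (bars), ordered by role and coloured by the edgeR call. The 7 called genes lie between 0.85 and 1.32, while the 4 repair genes lie between -0.31 and 0.73 and were not called.

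The calls depended on single libraries. With edgeR, 8 members were called higher without TNF replicate 2 (2.24% of all genes) and 3 (PLK2, FAS and TIGAR) without TNF replicate 8 (1.74% of all genes). Leaving out TNF replicate 14, or any 1 of LED replicates 4, 6 and 10, left 0 members called by edgeR, when 0.498%, 0.594%, 0.423% and 1.02% of all genes were called higher. At an unadjusted p below 0.05 these omissions gave 12, 15, 12 and 15 higher members, and 2 lower ones without LED replicate 6. The share of all genes at that level was not counted for these omissions. Whether the members exceeded it there is therefore not known. LED replicate 6 was the highest library for 17 of the 29 members. The members' median deviation from their 6-library mean was 0.57 there and 0.12 in both LED replicates 4 and 10. It was -0.08, -0.23 and -0.34 in TNF replicates 2, 8 and 14. Without TNF replicate 8 and LED replicate 6 together, 2 libraries a group remained, the most alike pair of each group. That choice lowers the spread within groups, and genes called over the whole table went from 713 to 1669. The calls of this fit are therefore not an independent check. In it 8 members were called higher (MDM2, PPM1D, CDKN1A, PLK2, FAS, PHLDA3, TP53INP1 and TIGAR), 2 lower (GADD45A and PMAIP1), and the median was 0.32. Of all genes, 5.51% were then called higher and 6.54% lower, so that the share of members called lower was close to that of all genes.

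**Figure D2:**
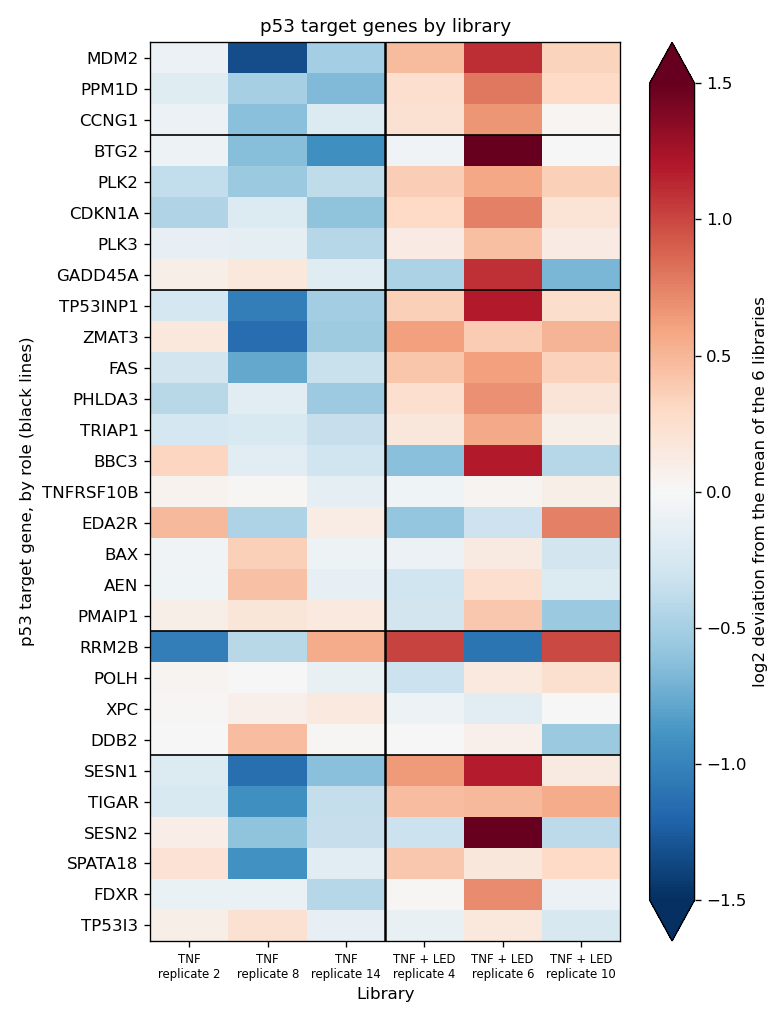
The heat map gives each member's log2 deviation from its mean over the 6 libraries (colour, limited to 1.5 either way), with libraries as columns and members as rows grouped by role. Most cells are red in LED replicate 6, the highest library for 17 members, while GADD45A, BBC3 and SESN2 are blue in LED replicates 4 and 10.

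Promoter sequence was examined to show where the known p53 motif lies in members that differed and in members that did not. p53 binds a pair of decamers, each with a central C and G that flank A or T bases. RefSeq promoter windows (GRCh38.p14, 250 bases before to 50 after a gene start) were matched by symbol for 24 of the 29 members, giving 36 windows, since several genes have more than one start. An exact single p53 decamer was in 16.7% of these windows (6 genes: AEN, DDB2, FAS, FDXR, PLK2 and SESN1) and in 6.63% of all 35116 windows. The decamer reads the same on both strands. A pair of adjacent decamers with up to 2 mismatches outside the cores was in the windows of FAS and AEN, and in 0.157% of all windows. In the sequences below, 5′ to 3′ on the gene's strand, capitals mark the decamer or the pair.
FAS: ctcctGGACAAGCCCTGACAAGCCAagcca
AEN: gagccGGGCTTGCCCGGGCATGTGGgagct
PLK2: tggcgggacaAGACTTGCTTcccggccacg
SESN1: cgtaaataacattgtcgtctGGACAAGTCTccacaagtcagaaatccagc
FDXR: gggcaggagcGGGCTTGCCCt

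The FAS pair starts 122 bases before one of its RefSeq starts (chr10:88991304-88991333, plus strand), in bases that GENCODE 29 annotates as exon of both FAS and ACTA2. The AEN pair starts 34 bases before the start (chr15:88621301-88621330, plus strand), in an annotated AEN exon. The PLK2 decamer starts 132 bases before its start (chr5:58460199-58460228, minus strand) and the FDXR decamer 11 bases before (chr17:74872995-74873015, minus strand), both in exons of the gene. DDB2 holds 2 decamers in 1 window, which reach past its start and are not printed. The SESN1 decamer starts 49 bases before an internal start (chr6:109009008-109009057, minus strand), inside the gene and in no annotated exon. FAS, PLK2 and SESN1 rose with LED, whereas AEN, DDB2 and FDXR did not pass, and CDKN1A, PPM1D and TIGAR rose with no decamer in these windows. The heat shock element GAANNTTCNNGAA, searched on both strands, was in none of the 36 windows and in 0.490% of all windows, and the ATF4 element TGATGNAA was in 1 (PLK3) and in 3.62% of all. Sites outside these windows, and pairs of decamers with bases between them, were not searched. A gene without a match here may therefore hold a p53 site elsewhere. These are matches of letters and were not tested for binding.

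Among the feedback genes, MDM2 encodes the ubiquitin ligase that degrades p53. Its level was 143, 60.7 and 107 CPM in the TNF libraries (replicates 2, 8 and 14, in this order throughout) and 212, 330 and 193 CPM in LED replicates 4, 6 and 10. Every LED library lay above every TNF library, and the TNF libraries themselves were widely spread, with replicate 8 the lowest. The log2 fold change was 1.24 ± 0.32 (SE), which did not pass (adjusted p = 0.0585, edgeR), while DESeq2 gave an adjusted p of 0.00183. Some 9.21% of its exon bases are shared with other annotated genes, most of them with the antisense transcript AC025423.4 (5.91%).

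PPM1D encodes the WIP1 phosphatase, which removes activating phosphates from p53 and the damage kinases. It had 14.3, 11.5 and 10.3 CPM with TNF and 19.3, 28.1 and 19.99 CPM with LED. The groups did not overlap, and PPM1D rose by 0.90 ± 0.22 on the log2 scale (adjusted p = 0.0475, edgeR). CCNG1, cyclin G1, which brings a phosphatase to MDM2, averaged 86.4 ± 16.4 CPM with TNF and 133 ± 30.3 with LED (SD, n = 3 each). Its libraries were also apart, without passing (log2 0.62 ± 0.22, adjusted p = 0.133, edgeR).

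The arrest gene CDKN1A encodes p21, the inhibitor of cyclin-dependent kinases through which p53 halts the cell cycle. CDKN1A had 440, 521 and 394 CPM in the TNF libraries and 736, 1011 and 693 CPM in LED replicates 4, 6 and 10. All LED libraries were above all TNF libraries, with LED replicate 6 the highest, and it rose by 0.85 ± 0.21 on the log2 scale (adjusted p = 0.0478, edgeR). That call was lost in each of the 6 single-library omissions (adjusted p up to 0.172), while the log2 fold change stayed between 0.66 and 0.96. Per kilobase of exon, CDKN1A was the most abundant member, at 148 CPM per kb with TNF and 267 with LED. PMAIP1 came next with TNF, at 47.6 CPM per kb, and SESN1 was lowest, at 1.08.

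PLK2 and PLK3 are polo-like kinases induced by stress. PLK2 had 99.7, 87.0 and 98.9 CPM with TNF and 165, 192 and 164 CPM with LED, so each group was tight and the groups were well apart. It had the lowest adjusted p of the members, with a log2 fold change of 0.87 ± 0.16 (adjusted p = 0.0245, edgeR). PLK3 averaged 43.7 ± 5.003 CPM with TNF and 60.4 ± 8.32 with LED and did not pass (adjusted p = 0.16, edgeR).

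BTG2 restrains proliferation and GADD45A links damage to arrest. BTG2 had 7.82, 5.29 and 4.37 CPM with TNF and 7.96, 26.9 and 8.25 CPM with LED. LED replicate 6 was far above the rest, and LED replicates 4 and 10 lay just above TNF replicate 2. It did not pass over all genes (log2 1.30 ± 0.46, adjusted p = 0.135, edgeR), and was at 0.48 without LED replicate 6. GADD45A had 78.1, 82.2 and 64.7 CPM with TNF and 52.9, 158 and 45.7 CPM with LED. Here LED replicate 6 was above all TNF libraries and LED replicates 4 and 10 were below all of them, so the log2 fold change of 0.19 ± 0.42 went to -0.61 without LED replicate 6.

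**Figure D3:**
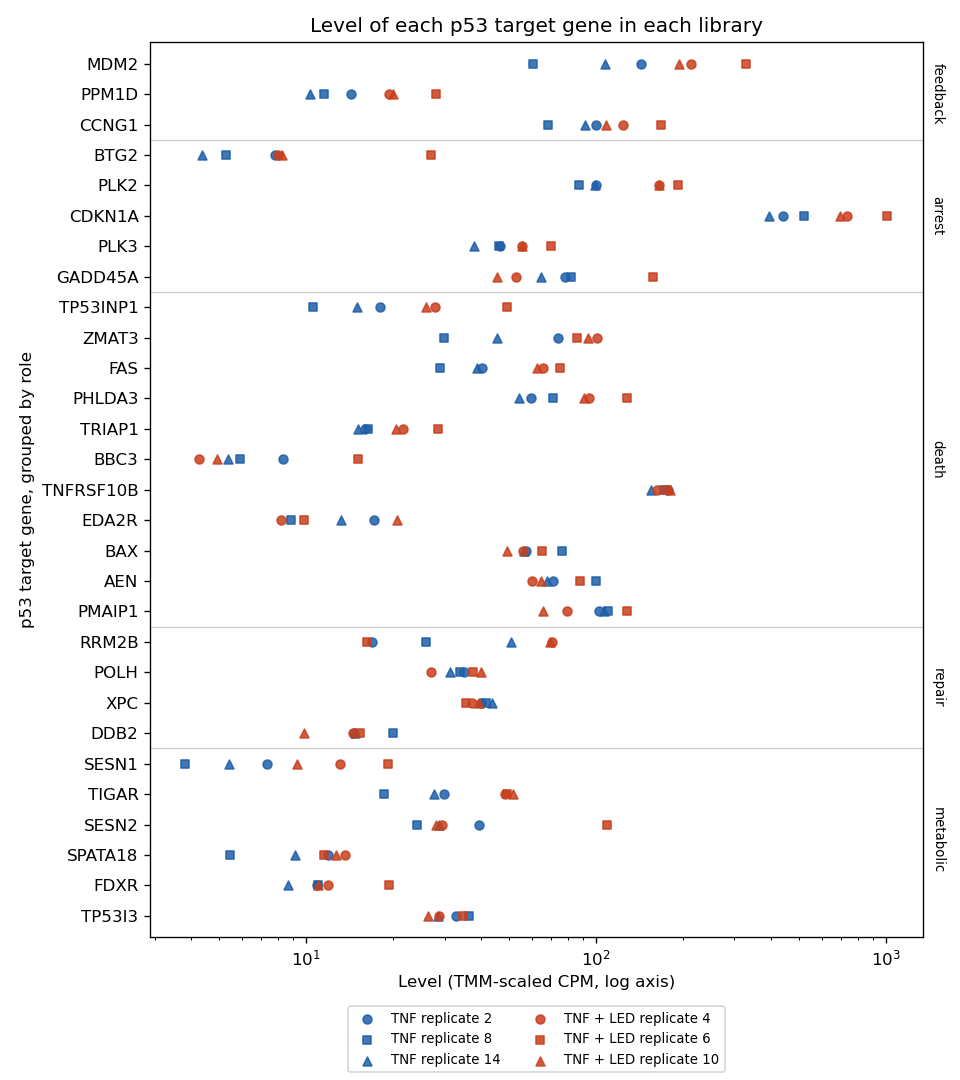
Each row gives the level of 1 member in the 6 libraries (TMM-scaled CPM, log axis), blue for TNF and red for TNF plus LED, with a marker shape for each replicate. For CDKN1A the LED libraries sit between 693 and 1011 CPM, above the TNF libraries at 394 to 521, whereas for TNFRSF10B all 6 libraries lie between 155 and 180 CPM.

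Of the 11 genes of the death group, 2 rose, where 2.44% of all tested genes were called higher. FAS, the receptor for the death ligand FASLG, had 40.4, 28.9 and 38.9 CPM with TNF and 65.4, 75.0 and 62.3 CPM with LED. The groups were apart, and FAS rose by 0.91 ± 0.19 on the log2 scale (adjusted p = 0.0324, edgeR). Exons of ACTA2, on the opposite strand, share 8.93% of the FAS exon bases. ACTA2 had 127 to 382 CPM with TNF and 116 to 170 with LED, a log2 fold change of -0.87. The share of FAS reads that could come from ACTA2 was not tested. TP53INP1, a stress-induced nuclear protein that promotes p53 activity and autophagy, had 18.0, 10.5 and 14.995 CPM with TNF and 27.7, 49.2 and 26.0 CPM with LED. LED replicate 6 was highest, the groups did not overlap, and the rise was 1.24 ± 0.29 (adjusted p = 0.0455, edgeR).

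In this group 3 further genes had every LED library above every TNF library without passing, where 16.2% of all tested genes were arranged this way. PHLDA3, which represses the survival kinase AKT, had 59.7, 70.7 and 54.4 CPM with TNF and 94.6, 128 and 90.8 CPM with LED (log2 0.76 ± 0.20, adjusted p = 0.0575, edgeR). It passed with DESeq2 (adjusted p = 0.00623), as did BTG2 (0.0253), TRIAP1 (0.0486) and ZMAT3 (0.0207). ZMAT3, an RNA-binding zinc finger protein, went from an average of 49.7 ± 22.2 to one of 93.7 ± 7.56 CPM (adjusted p = 0.105, edgeR). TRIAP1, which protects cells from apoptosis, averaged 15.8 ± 0.649 and 23.5 ± 4.35 CPM (adjusted p = 0.108, edgeR).

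The mitochondrial apoptosis genes BBC3, PMAIP1 and BAX did not pass. BBC3, which encodes PUMA, had 8.30, 5.93 and 5.39 CPM with TNF and 4.28, 15.1 and 4.91 CPM with LED. As for GADD45A, LED replicate 6 was above and LED replicates 4 and 10 below every TNF library (log2 0.31 ± 0.45, and -0.51 without LED replicate 6). PMAIP1, which encodes NOXA, had 103, 110 and 107 CPM with TNF and 79.5, 128 and 65.5 CPM with LED, in the same arrangement. BAX, the pore-forming protein of the mitochondrial membrane, averaged 63.5 ± 11.3 and 56.9 ± 7.96 CPM (log2 -0.16 ± 0.19).

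The remaining members of the death group overlapped between groups. TNFRSF10B, the receptor for the death ligand TRAIL, averaged 167 ± 11.3 CPM with TNF and 172 ± 8.90 with LED. Its log2 fold change was 0.04 ± 0.15. AEN, a nuclease that acts in apoptosis, had a log2 fold change of -0.17 ± 0.22, and EDA2R, a receptor of the TNF receptor family, one of -0.02 ± 0.36.

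No repair gene passed, with edgeR or with DESeq2, and 0 of the 4 had an unadjusted p below 0.05. Over the whole table, edgeR called 5.17% of genes in either direction and DESeq2 called 6.34% higher. An unadjusted p below 0.05 was found for 22.7%. With 4 genes, a count of 0 is near these shares. XPC, which recognises bulky damage for nucleotide excision repair, had 40.2, 41.6 and 43.8 CPM with TNF and 37.4, 35.5 and 39.4 CPM with LED. The groups were just apart, in the lower direction (log2 -0.16 ± 0.15, adjusted p = 0.587, edgeR), and 30.4% of the XPC exon bases are shared with genes on the opposite strand such as LSM3. DDB2, its partner in recognising ultraviolet damage, had 14.6, 19.99 and 14.7 CPM with TNF and 14.6, 15.3 and 9.84 CPM with LED (log2 -0.31 ± 0.23, adjusted p = 0.458, edgeR). Its libraries overlapped. POLH, a polymerase that copies past lesions, averaged 33.4 ± 1.85 and 34.9 ± 6.92 CPM.

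RRM2B, the ribonucleotide reductase subunit that supplies nucleotides for repair, had the largest standard error of the members. The TNF libraries held 16.9, 26.0 and 51.0 CPM, and LED replicates 4, 6 and 10 held 70.4, 16.2 and 69.2 CPM. LED replicate 6, the highest library for most members, was the lowest for this one. The log2 fold change was 0.73 ± 0.54 (adjusted p = 0.463, edgeR) and lay between 0.42 and 1.28 over the alternatives.

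Among the metabolic genes TIGAR, a phosphatase that lowers glycolytic flux, had 29.98, 18.6 and 27.6 CPM with TNF and 48.7, 49.3 and 51.6 CPM with LED. The LED libraries were nearly equal and all above the TNF libraries, and TIGAR rose by 0.97 ± 0.20 on the log2 scale (adjusted p = 0.0331, edgeR). An overlapping annotated gene on the same strand, AC008012.1, shares 42.6% of its exon bases, so the division of counts between them is uncertain.

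SESN1 and SESN2 encode sestrins, stress proteins that restrain the growth kinase mTORC1. SESN1 had 7.31, 3.83 and 5.43 CPM with TNF and 13.1, 19.1 and 9.26 CPM with LED. The groups did not overlap, and it rose by 1.32 ± 0.32 (adjusted p = 0.047, edgeR). That call was kept in 1 of the 6 single-library omissions. It was lost without TNF replicate 8 and LED replicate 6 together, and with limma-voom (adjusted p = 0.0537). SESN2 had 39.4, 24.2 and 28.8 CPM with TNF and 29.3, 109 and 28.1 CPM with LED. Only LED replicate 6 was above the TNF libraries, and the log2 fold change of 0.85 ± 0.48 became -0.10 without it.

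The other metabolic genes did not pass. FDXR, a mitochondrial ferredoxin reductase, had 10.9, 10.9 and 8.69 CPM with TNF and 11.9, 19.2 and 11.03 CPM with LED (log2 0.46 ± 0.25, adjusted p = 0.304, edgeR). Its groups were just apart, with LED replicate 6 the highest. SPATA18, which takes part in mitochondrial quality control, had 5.45 to 11.9 CPM with TNF and 11.5 to 13.6 with LED. TP53I3, a quinone oxidoreductase, averaged 32.6 ± 3.98 and 29.9 ± 4.30 CPM.

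Next came the genes that control p53. Of 29 tested genes of the p53 family and its regulators 1 fell and 28 did not pass, with a median log2 fold change of -0.03. In all, 2.73% of tested genes were called lower, so 1 call among 29 is near that share. CHEK1, the checkpoint kinase of S phase, fell from 27.3 ± 3.20 to 14.96 ± 0.755 CPM (log2 -0.87 ± 0.17, adjusted p = 0.0283, edgeR), a call lost without LED replicate 6. MDM4, the partner of MDM2 in restraining p53, had 13.9, 5.88 and 10.5 CPM with TNF and 15.6, 24.0 and 17.0 CPM with LED, lowest in TNF replicate 8 as for MDM2 (adjusted p = 0.125, edgeR).

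A second list of 47 reported p53 targets was examined, 43 of which were tested. TNFRSF10D, a decoy receptor for TRAIL, rose by 1.51 ± 0.37 (adjusted p = 0.0482, edgeR), a call lost without LED replicate 6. Its TNF libraries held 26.3, 28.2 and 14.5 CPM and its LED libraries 52.96, 103 and 40.9 CPM. The other 42 did not pass. The share of the tested list called higher was 2.33%, close to the 2.44% of all tested genes. The median log2 fold change was 0.22, and 0.12 without LED replicate 6, alone or together with TNF replicate 8. The libraries were apart in 15 genes that were higher with LED and in 6 that were lower, where 16.2% of all genes were apart and higher, 16.2% apart and lower, and 32.4% apart in either direction.

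Other responses moved across the same libraries. Of 22 heat shock genes 21 rose (20 without LED replicate 6), with a median log2 fold change of 2.57. Among all tested genes, 2.44% were called higher, and 0.423% without LED replicate 6. Lowest in p were the cochaperones DNAJA4 and BAG3, FKBP4 and the chaperone HSPH1, at log2 fold changes of 7.18, 3.40, 2.81 and 4.19, and HSPA1A, the inducible HSP70 chaperone, had 81.1 to 189 CPM with TNF and 6010, 10652 and 3645 CPM in LED replicates 4, 6 and 10. The median deviation of this list was also highest in LED replicate 6 (1.54, against 1.26 and 0.92). Of 20 cell division genes that p21 is known to repress through the DREAM complex 12 fell, with a median log2 fold change of -1.29. Among all tested genes, 2.73% were called lower. BUB1, KIF23, E2F1 and MKI67 were lowest in p (-1.28, -1.17, -1.61 and -1.13). Without LED replicate 6 edgeR called 0 of the 20, at a median of -1.28, and 18 were called without it and TNF replicate 8 together. The first fit called 21 of 13935 tested genes lower. The second, on the most alike pair of libraries in each group, called 6.54% lower. MKI67, a marker of dividing cells, had 158, 259 and 203 CPM with TNF and 102, 83.3 and 97.3 with LED. TNF replicate 8 had the highest level of this list (median deviation 1.29, against 0.17 and 0.42 in TNF replicates 2 and 14). It was the lowest library for 10 of the 29 p53 targets and the highest for 4. The median deviation of the p53 targets was lowest in TNF replicate 14, at -0.34, against -0.23 in TNF replicate 8.

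ATF4 is a factor of amino acid and endoplasmic reticulum stress. A list of 15 genes of the ATF4 stress response, with ATF4 itself among them, was examined. The reason was that ATF4 and its partner CHOP are also known to induce SESN2, BBC3 and GADD45A. STC2, a secreted glycoprotein, had a log2 fold change of -0.85 ± 0.19 and fell (adjusted p = 0.0403, edgeR), although not without LED replicate 6. None of the other 14 passed, where 2.73% of all tested genes were called lower. In the list 2 genes were called lower without TNF replicate 8, and 4 without it and LED replicate 6. Over the whole table these fits called 298 of 14063 genes and 6.54% of genes lower. The list's median log2 fold change was 0.47, 0.05 without LED replicate 6, 0.23 without TNF replicate 8 and -0.13 without both. The median deviation of the list was 0.70 in LED replicate 6, and 0.00 and -0.23 in LED replicates 4 and 10. DDIT3 encodes CHOP. Its level was 25.9, 11.4 and 13.9 CPM with TNF, and 35.8, 113 and 23.4 CPM in LED replicates 4, 6 and 10. DDIT3 did not pass (log2 1.75 ± 0.55, adjusted p = 0.0998, edgeR), and was chosen after its values were seen. The part of these responses in the p53 target levels was not tested.

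**Figure D4:**
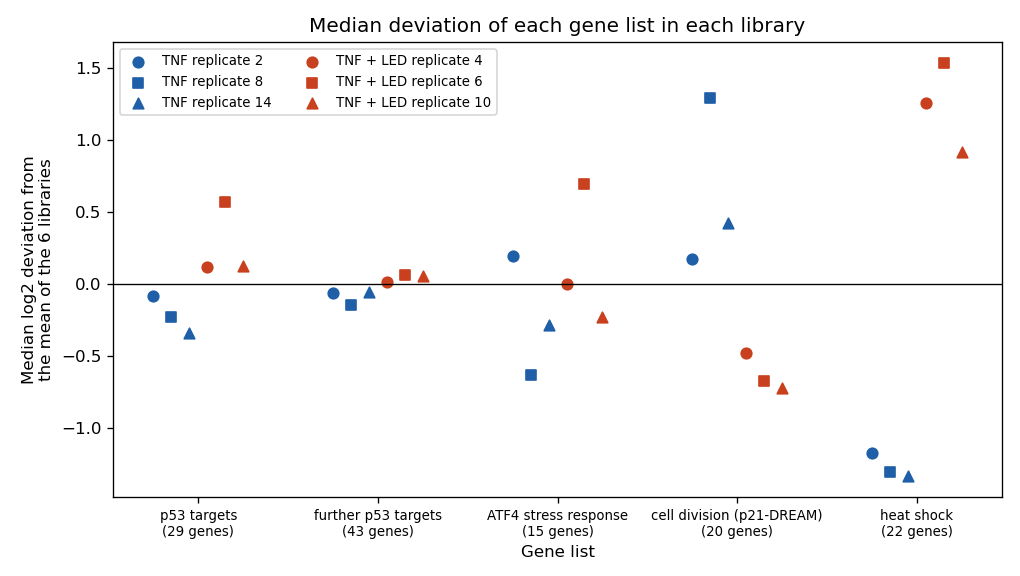
Points give the median log2 deviation from the 6-library mean for 5 gene lists (horizontal axis) in each library, blue for TNF and red for TNF plus LED. The p53 targets reach 0.57 in LED replicate 6 and 0.12 in LED replicates 4 and 10, and the ATF4 list is likewise highest in LED replicate 6, at 0.70.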

How the data were processed

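Per the deposited table, values are estimated counts, whole numbers listed by symbol, for 6 RNA libraries depleted of ribosomal RNA. Per the submitters' processing notes, bcl2fastq 2.0, HISAT2, StringTie, DESeq2 and limma were used, with no roles given, and the build named is mm10 although samples and symbols are human. The aligned build and the strandedness of counting are not given in the sources used here. Of the values from 1 to 7, 67.2% equalled 4 or 5, so a fragment was taken as about 4 units.

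The test of TNF plus LED (n = 3) against TNF (n = 3) used edgeR 4.0.16 in R 4.3.3 (filterByExpr, TMM, robust quasi-likelihood, two-sided, Benjamini-Hochberg over 13794 genes, threshold 0.05) with no covariate. The standard error is the log2 fold change divided by the square root of F. Deviations per library used log2 CPM with 2 counts added. Alternatives were other filters and scalings, counts divided by 4, DESeq2 1.42.0, limma-voom (limma 3.58.1), another threshold and libraries left out. The fit was tested on simulated data. No library was a copy of another. Because separate cultures are not stated, p-values reflect the spread among these samples alone, and it may be technical. Exon lengths and overlaps came from GENCODE 29.

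The members, their roles and the other lists were chosen with earlier results of these data known, so no list was tested as a set. Named are all 29 members, MDM4, the called members of each other list with the lowest p (at most 4), and HSPA1A and MKI67. Library values are given for called members, for CDKN1A, MDM2 and BBC3, for the uncalled member with the lowest p in each role, and for others where the libraries of a group disagreed, which were chosen after their values were seen. A gene that the rule also names is not reported here.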

Additional observations from a re-analysis of the deposited data

How the results depend on the processing

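No paired analysis was possible because the groups share no replicate number. Genes called over the whole table numbered 713 in the main analysis, 1753 with DESeq2, 1471 at an adjusted p of 0.1, 1669 without TNF replicate 8 and LED replicate 6 together, and 80 to 737 with a single library left out. The 1669 came from the most alike pair of libraries in each group and are not an independent check. The p53 targets called, all of them higher, numbered 7, against 12 with DESeq2, 4 with library totals as the only scaling, and 0 to 8 with a single library left out. Of all tested genes, 2.44% were called higher in the main analysis, 6.34% with DESeq2 and 0.423% to 2.24% with a single library left out. With library totals only, 257 of 13794 genes were called higher. The median log2 fold change of the members lay between 0.32 and 0.63 in every alternative. Among single members under the alternatives, 371 values kept their direction and their side of the threshold, 40 lost and 12 gained the call, and 13 changed sign, all 13 in members that the main analysis did not call. GADD45A without TNF replicate 8 and LED replicate 6 together is among both of the last. With limma-voom GADD45A was at -0.042. Without TNF replicate 8 and LED replicate 6 together GADD45A was at -0.53, BBC3 at -0.57 and SESN2 at -0.25. With a single library left out, log2 fold changes ranged from -0.61 to 0.487 for GADD45A, from -0.51 to 0.63 for BBC3, from -0.10 to 1.170 for SESN2, from -0.539 to 0.23 for EDA2R, from -0.354 to 0.0299 for AEN, from -0.0134 to 0.0943 for TNFRSF10B and from -0.0497 to 0.23 for POLH. The cause was not tested. With 3 libraries a group, the spread among libraries limits which differences can be detected.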

Other observations

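A gene outside the members also varied widely within both groups. CEBPB, a transcription factor of the ATF4 list, was at 186, 8.45 and 6.67 CPM in the TNF libraries (replicates 2, 8 and 14) and at 282, 8.18 and 281 CPM in LED replicates 4, 6 and 10, so that low and high libraries occurred in both groups. RRM2B and CEBPB were both high in LED replicates 4 and 10 and low in LED replicate 6. In TNF replicates 2 and 14 they ran opposite ways (16.9 and 51.0 CPM for RRM2B). CEBPB was chosen after its values were seen.

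Receptors of TRAIL among the p53 targets had log2 fold changes on both sides of 0, of which 1 passed the test. TNFRSF10D, a decoy, rose by 1.51 on the log2 scale, TNFRSF10B was at 0.04, and TNFRSF10A, the other signalling receptor, was at -0.85. The other decoy, TNFRSF10C, was at 0.03, at 0.269 to 0.446 CPM. TNFRSF10A did not pass (5.51, 7.97 and 6.21 CPM with TNF, and 3.54, 3.30 and 4.05 CPM with LED, adjusted p = 0.0633, edgeR). TNFRSF10A was chosen after its values were seen, and differences between the receptors were not tested.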
